A study of Mus musculus with 10 samples.

Results

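The solute carrier 25 (SLC25) genes encode the carriers that move metabolites across the inner mitochondrial membrane. They were studied here in livers of mice in which the microRNA miR-122 was blocked with an antisense oligonucleotide (ASO). The genes were chosen by annotated symbol: every probe assigned to a single gene named Slc25a with a number was taken, except those of Slc25a1, Slc25a15 and Slc25a20, and the probe with the highest mean over all arrays stood for its gene. This gave 40 genes, measured by 49 probes, of 18012 genes with a tested single-gene probe. All 40 had values in every mouse, and 31 had a mean above the median of all tested probes (0.03 on the log2 scale).

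The 10 livers came from 5 ASO mice and 5 saline mice, each hybridised to its own 1-colour CodeLink array. The ASO, a phosphorothioate with 2′-O-methoxyethyl sugars, went into male C57Bl/6 animals by the intraperitoneal route at 50 mg/kg per dose, 2 doses a week over 4 weeks. Saline mice were injected as often, their labels name neither strain nor sex, and all livers were collected 2 days past the final dose. No label gives the animals' age. Because the controls received no oligonucleotide, an effect of the chemistry and an effect of losing miR-122 cannot be told apart. Liver tissue was homogenised, so fewer cells of a type and less RNA per cell cannot be told apart either. Hepatocyte markers were bright on the arrays: all 7 of the measured ones were above the median level, with Alb at a mean log2 intensity of 10.12 and Ttr at 10.11.

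The inner mitochondrial membrane is closed to most charged metabolites, and each SLC25 protein exchanges or imports a small set of them. In liver these carriers connect the mitochondrial matrix with the cytosol for energy supply, the urea cycle, gluconeogenesis, amino acid breakdown and the export of carbon for lipid synthesis. The proteins are encoded in the nucleus, made in the cytosol and inserted into the inner membrane by a dedicated import route.

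No carrier gene passed the threshold between the groups (limma, adjusted p under 0.05). The count was 0 of 40 genes, where 0.0637% of all 36088 probes passed, and the adjusted p of the 40 genes lay between 0.273 and 0.982. At an unadjusted limma p under 0.05 there were 5 genes, 4 lower and 1 higher in ASO mice. That is 10% of the genes lower, where 6.66% of all probes were, and 2.5% higher, where 4.58% of all probes were. In no gene did the 2 groups separate without overlap, which 2.37% of all probes did (0.939% higher and 1.43% lower in ASO mice). Of the 40 genes 17 were higher and 23 (57.5%) lower, where 50.3% of all probes were lower. Their median log2 fold change (ASO minus saline) was -0.13, and over all tested probes it was -0.0029. On the deposited scale the sign went with brightness, among the carriers as on the whole array. Of the 31 genes above the median level 22 lay below 0 and the median difference was -0.19 (log2), where 59.9% of all probes above that level were lower and their median was -0.08. Of the 9 other genes 8 were higher, with a median of 0.28, where all probes at or below that level had a median of 0.07. On the whole array this was gone under other scalings: with quantile normalization all probes above that level had a median of 0.02 and with cyclic loess 0.0010, and the 31 carriers had -0.07 with either. Among the 9 other carriers the same 8 stayed higher under quantile normalization. Under cyclic loess Slc25a2 (-0.0032) and Slc25a18 (-0.018) of these 8 turned. All 5 genes with an unadjusted p under 0.05 were among the 31 above the median level, 4 lower (background 10.4% of the probes above that level) and 1 higher (3.66%). The count of 4 lower genes became 2 without saline replicate 4, without ASO replicate 2, without ASO replicate 3 or under quantile normalization. It was 3 under cyclic loess or with no floor, and 5 with a pseudocount. The count of 1 higher gene became 2 without ASO replicate 1. The median of the 40 genes was 0.0069 under quantile normalization and -0.01 without ASO replicate 4.

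**Figure D1:**
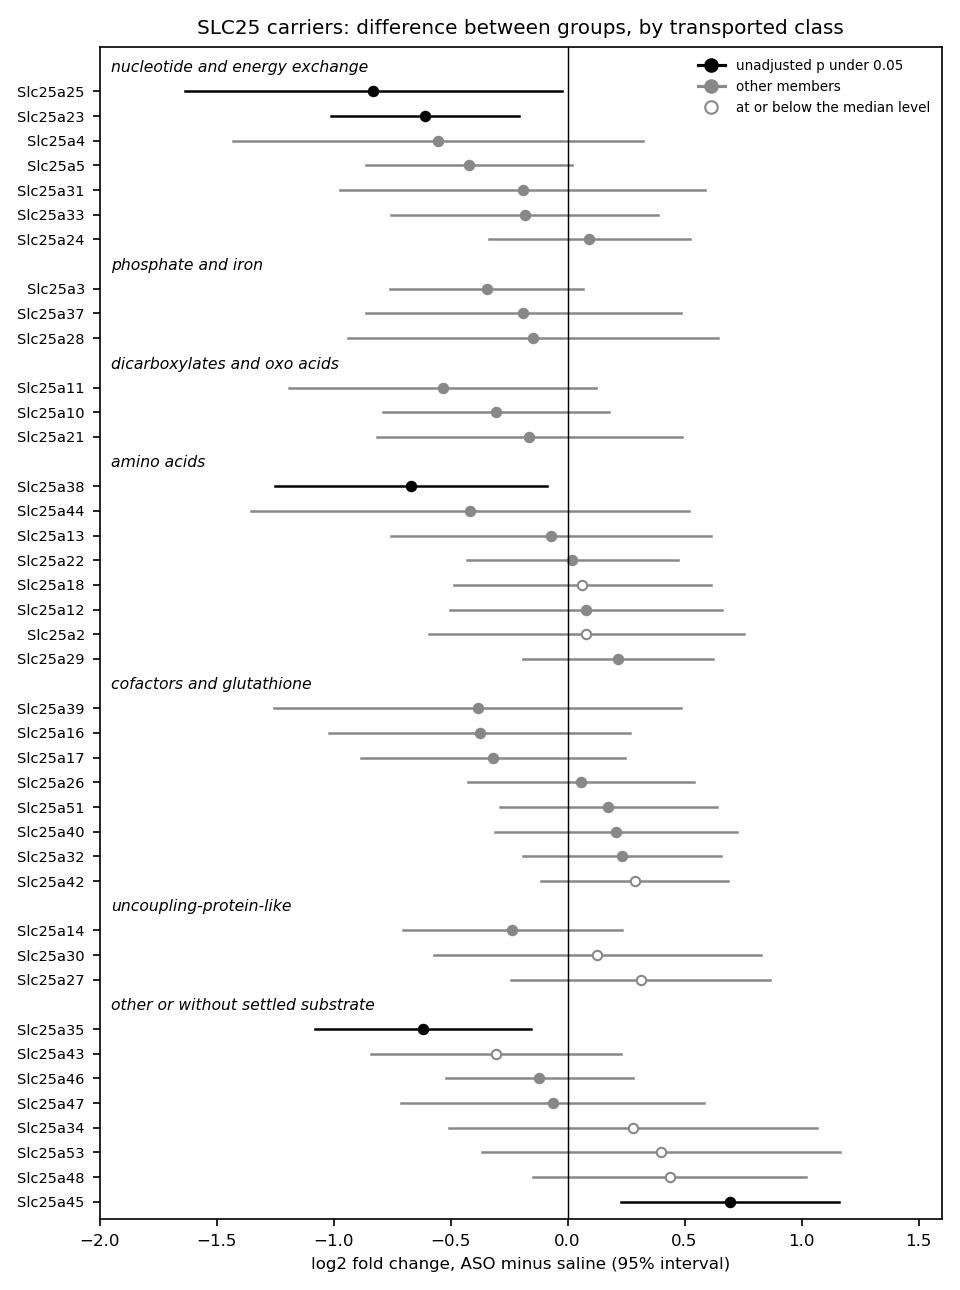
Log2 fold change of each of the 40 carriers (x axis, ASO minus saline, bars are 95% intervals of the limma fit, 5 mice per group), sorted by the class of molecule carried. Black marks have an unadjusted p under 0.05 and open circles lie at or below the median level of all probes; 4 black marks lie left of 0 and 1 (Slc25a45) lies right of it.

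Among carriers of adenine and other nucleotides 6 of 7 genes were lower, 2 of them at an unadjusted p under 0.05, and the median difference was -0.42 (log2). All 7 lay above the median level, where 59.9% of all probes were lower and 10.4% were lower at that p. Slc25a23 encodes a calcium-regulated carrier that exchanges ATP-magnesium for phosphate. Its array intensity was 81.8, 64.0, 53.3, 59.4 and 72.6 in the saline mice and 42.8, 43.4, 33.1, 54.7 and 43.2 in the ASO mice. Of the ASO mice 4 lay below every saline mouse, and ASO replicate 4 lay just above the lowest one. The log2 level was 6.03 ± 0.24 in saline mice and 5.42 ± 0.26 in ASO mice (SD over 5 mice each). The difference was -0.61 ± 0.18 (log2, SE from limma), with an unadjusted p of 0.00654 and an adjusted p of 0.273 in limma. This was the smallest p among the 40 probes that stand for their genes, while a second probe of Slc25a12, described with the paired probes, had a smaller one.

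Slc25a25, a second ATP-magnesium carrier, had 9.84, 6.71, 12.2, 10.9 and 9.73 in saline mice and 5.70, 4.20, 2.69, 14.0 and 5.34 in ASO mice. Again 4 ASO mice lay below all saline mice, but ASO replicate 4 was the highest of all 10. The log2 fold change was -0.83 ± 0.37 (limma unadjusted p = 0.0443, adjusted p = 0.433), and it was -1.17 without that mouse. The third carrier of this kind, Slc25a24, had a log2 fold change of 0.09 ± 0.20. The ADP/ATP carriers export the ATP made by oxidative phosphorylation. For Slc25a5, a widely expressed form, the intensity was 204, 156, 123, 186 and 142 in saline mice and 109, 112, 94.2, 161 and 129 in ASO mice, and 3 ASO mice lay below all saline mice. Its log2 fold change was -0.42 ± 0.20 (limma adjusted p = 0.464). Slc25a4, the form of heart and muscle, had -0.55 ± 0.40, and without ASO replicate 2, where it was lowest (2.16 against 5.43 to 12.1 in the other ASO mice), -0.16. Skeletal muscle markers (5 of 5 measured) summed to 1.80 to 11.5 intensity units in saline mice and 2.54 to 3.14 in ASO mice, and their part in the Slc25a4 value was not tested. The testis form Slc25a31 had -0.19 ± 0.36 and the pyrimidine nucleotide carrier Slc25a33 -0.18 ± 0.26, and without ASO replicate 4 these were -0.0048 and -0.02.

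**Figure D2:**
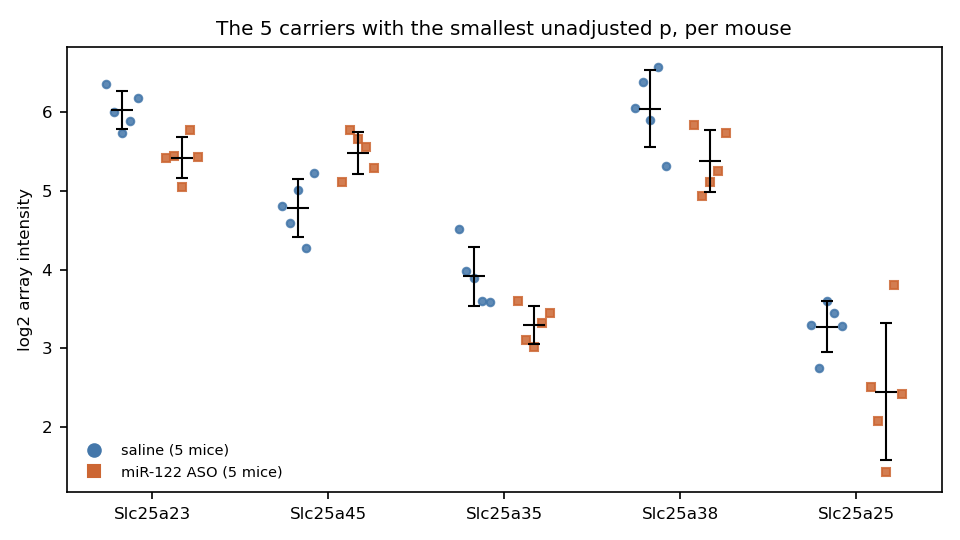
Log2 array intensity (y axis) in each mouse for the 5 carriers with the smallest unadjusted p. Circles are saline mice, squares are ASO mice, and black bars give the mean ± SD (n = 5 per group); the groups overlap in each gene, by 1 ASO mouse in Slc25a23, Slc25a35 and Slc25a45.

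The 3 carriers of phosphate and iron were each lower, and none had an unadjusted p under 0.05. All 3 lay above the median level, where 59.9% of all probes were lower. Slc25a3 supplies the matrix with the phosphate needed for ATP synthesis and had the brightest probe of the family. Its intensity was 248, 337, 408, 465 and 409 in saline mice and 289, 265, 291, 270 and 325 in ASO mice. The other 4 saline mice lay above every ASO mouse, and saline replicate 1 lay below all of them. The log2 fold change was -0.35 ± 0.19 (limma adjusted p = 0.523) and -0.48 without saline replicate 1. That array had a brightest value of 542, where the other arrays reached 1198 to 2333, and the part of this in its low Slc25a3 value was not tested. The mitoferrins bring iron into the matrix for heme and iron-sulfur clusters. Slc25a28 (mitoferrin 2) had a log2 fold change of -0.15 ± 0.36 and Slc25a37 (mitoferrin 1) -0.19 ± 0.31, and their signs turned without ASO replicate 4 (Slc25a28, 0.14) and without saline replicate 1 (Slc25a37, 0.02).

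Carriers of dicarboxylates and oxo acids were lower in each of the 3 genes measured. These 3 lay above the median level, where 59.9% of all probes were lower. Slc25a11 exchanges 2-oxoglutarate for malate, a step of the malate-aspartate shuttle. Its intensity was 6.80, 7.02, 6.25, 7.52 and 5.76 in saline mice and 1.93, 6.58, 5.10, 5.95 and 5.26 in ASO mice. ASO replicate 1 stood far below the others, and with it the log2 fold change was -0.53 ± 0.30 (limma adjusted p = 0.534), without it -0.22. Slc25a10, which exchanges malate or succinate for phosphate, had -0.31 ± 0.22 and -0.16 without ASO replicate 1 or under quantile normalization. Slc25a21, the carrier of 2-oxoadipate from lysine and tryptophan breakdown, had -0.16 ± 0.30.

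Among the 8 amino acid carriers 3 were lower and 5 higher, and the median difference was 0.04 (log2). Slc25a38 imports glycine for the first step of heme synthesis. Its intensity was 66.3, 83.7, 59.7, 95.1 and 40.0 in saline mice and 57.3, 30.6, 34.5, 38.3 and 53.4 in ASO mice. Of the saline mice 4 lay above every ASO mouse, and saline replicate 5 lay among the ASO values. The log2 fold change was -0.67 ± 0.27 (limma unadjusted p = 0.0275, adjusted p = 0.382). A second probe of this gene gave -0.03 ± 0.18. Of 7 erythroid markers 4 were measured, with a summed intensity of 50.6 to 104 in saline mice and 32.6 to 86.7 in ASO mice, and nearly all of it came from Alas2 (-0.51, log2 fold change). The other 3 had small values of the opposite sign (Epb42 0.11, Slc4a1 0.27 and Klf1 0.04), and the part of these cells in the Slc25a38 value was not tested. Slc25a13 (citrin) exports aspartate from liver mitochondria for the urea cycle and the malate-aspartate shuttle. Its intensity was 101, 73.0, 70.9, 31.1 and 61.5 in saline mice and 58.0, 37.4, 60.9, 68.8 and 86.0 in ASO mice, so the ASO range lay within the saline range. The log2 fold change was -0.07 ± 0.31, with a 95% interval of -0.75 to 0.61. For Slc25a22, a glutamate carrier, the saline mice had 74.6, 62.8, 44.1, 70.1 and 59.5 and the ASO mice 61.1, 63.1, 48.6, 56.0 and 88.1. The groups overlapped almost fully, with a log2 fold change of 0.02 ± 0.21. Slc25a44, which carries branched-chain amino acids, had -0.42 ± 0.43, and -0.07 without ASO replicate 3 (8.98 against 28.7 to 31.8 in the other ASO mice). The basic amino acid carrier Slc25a29 had 0.22 ± 0.19, and 0.09 without saline replicate 1. Slc25a12 (aralar), Slc25a18 (a glutamate carrier) and Slc25a2 (an ornithine carrier) lay between 0.06 and 0.08, and the last pair lay below the median level of all probes.

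**Figure D3:**
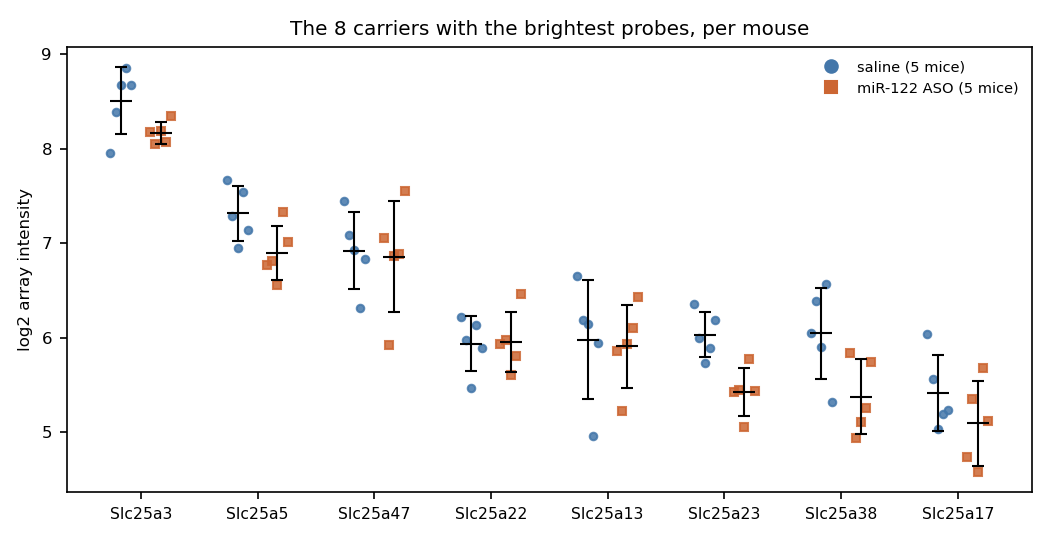
Log2 array intensity (y axis) in each mouse for the 8 carriers with the brightest probes; circles are saline mice, squares are ASO mice and black bars are mean ± SD (n = 5 per group). Brightness differs between probes for reasons other than RNA amount, so only the groups within a gene are compared; saline replicate 1 is the low circle of Slc25a3.

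Carriers of cofactors and glutathione were 3 lower and 5 higher, and none of the 8 had an unadjusted p under 0.05. The lower ones were Slc25a39, which brings glutathione into mitochondria (-0.38 ± 0.40), Slc25a16, linked to coenzyme A (-0.38 ± 0.29), and Slc25a17, the peroxisomal member of the family (-0.32 ± 0.26). Slc25a39 spanned 24.2 to 71.1 in saline mice and 16.0 to 64.9 in ASO mice, and its log2 fold change was -0.12 without ASO replicate 1. Slc25a17 had 65.7, 47.3, 32.7, 36.6 and 37.6 in saline mice and 26.6, 40.9, 23.8, 51.1 and 34.8 in ASO mice. Only saline replicate 1 lay above all ASO mice, and the log2 fold change was -0.16 without saline replicate 1 and -0.14 under quantile normalization. Slc25a32, the carrier of folate and flavin, had 4 ASO mice above and 1 below all saline mice, and a log2 fold change of 0.23 ± 0.19. It was the gene that joined the higher ones at 0.38 without ASO replicate 1. Slc25a42, a coenzyme A carrier with a dim probe, had 0.205, 0.305, 0.230, 0.283 and 0.318 in saline mice and 0.363, 0.395, 0.290, 0.283 and 0.296 in ASO mice. Only ASO replicates 1 and 2 lay above all saline mice, and the log2 fold change was 0.29 ± 0.18, and 0.10 with a pseudocount. Slc25a40, the partner of Slc25a39, had 0.21 ± 0.24, the NAD carrier Slc25a51 had 0.17 ± 0.21 and the S-adenosylmethionine carrier Slc25a26 had 0.06 ± 0.22.

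Of the 3 uncoupling-protein-like genes, Slc25a30 lay at the floor (an intensity of 0.192, to which lower values were set) on 7 of 10 arrays and had a log2 fold change of 0.13 ± 0.32. Slc25a27 had 0.31 ± 0.25 and Slc25a14 had -0.24 ± 0.21.

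Of the 8 genes grouped as other or without a settled substrate, 4 were lower and 4 higher. Slc25a45 was the 1 carrier gene that was higher at an unadjusted p under 0.05. Its intensity was 28.1, 24.2, 32.2, 19.4 and 37.6 in saline mice and 34.6, 54.7, 50.4, 47.2 and 39.3 in ASO mice. Of the ASO mice 4 lay above every saline mouse, and ASO replicate 1 lay below saline replicate 5 alone. Its mean log2 level was 4.79 ± 0.37 in saline mice and 5.48 ± 0.27 in ASO mice (SD over 5 mice each). The difference was 0.69 ± 0.21 (log2, SE; limma unadjusted p = 0.00720, adjusted p = 0.276). Slc25a35 went the other way, with 22.8, 15.8, 14.8, 12.1 and 11.98 in saline mice and 12.2, 8.59, 8.07, 9.95 and 10.9 in ASO mice. Only ASO replicate 1 reached the saline range, and the log2 fold change was -0.62 ± 0.21 (limma unadjusted p = 0.0132, adjusted p = 0.315). Slc25a47, a carrier found mainly in liver, varied more within groups (SD 0.51, log2) than the groups differed. Its intensity was 174, 136, 122, 79.7 and 114 in saline mice and 133, 60.9, 117, 118 and 188 in ASO mice. Both the lowest and the highest of the 10 were ASO mice, with a log2 fold change of -0.06 ± 0.30. A second, dimmer probe of this gene gave -0.31 ± 0.19. Slc25a46, an outer membrane protein that shapes mitochondria, had -0.12 ± 0.18. The other 4 (Slc25a34, Slc25a43, Slc25a48 and Slc25a53) lay below the median level, with log2 fold changes from -0.31 to 0.44. Slc25a48 had 0.346, 0.462, 0.456, 0.332 and 0.182 in saline mice and 0.595, 0.609, 0.380, 0.353 and 0.436 in ASO mice. Only ASO replicates 1 and 2 exceeded every saline mouse, and its log2 fold change was 0.44 ± 0.27, and 0.23 without saline replicate 5.

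Slc25a23, Slc25a35 and Slc25a45 kept their direction and an unadjusted p under 0.05 in each of the 18 alternatives. Slc25a38 did so in 11 of 18 and Slc25a25 in 6 of 18. None of the 40 genes reached an adjusted p under 0.05 in any alternative run for it, which was all 18 for the 31 genes above the median level and 17 for the other 9.

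The sequences before the start sites of these genes are shown because these carriers had the smallest p values of the family, although none passed the adjusted threshold. RefSeq windows (GRCm38.p6) were found for 31 of the 40 genes, among them 4 of the 5 with an unadjusted p under 0.05. The window searched was the 250 bases before the first listed start site, and for 6 genes more than 1 start site was listed. For Slc25a11, Slc25a18, Slc25a39, Slc25a47 and Slc25a48 this window lay wholly inside the annotated gene, and it was counted with the others. The shares over all windows count every listed start site of each gene. The sequences run 5′ to 3′ on the gene's strand and stop where the annotated gene begins. Capitals mark matches on either strand to the CCAAT box (CCAAT), the GC box (GGGCGG) and the core of ETS factor sites (CCGGAAG), and none of these matches overlap.
Slc25a23, chr17:57059910-57060113, minus strand: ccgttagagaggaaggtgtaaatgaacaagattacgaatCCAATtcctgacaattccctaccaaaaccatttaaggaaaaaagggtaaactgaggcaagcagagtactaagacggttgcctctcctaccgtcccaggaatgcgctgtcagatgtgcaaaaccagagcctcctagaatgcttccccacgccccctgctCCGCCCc
Slc25a25, chr2:32451471-32451720, minus strand: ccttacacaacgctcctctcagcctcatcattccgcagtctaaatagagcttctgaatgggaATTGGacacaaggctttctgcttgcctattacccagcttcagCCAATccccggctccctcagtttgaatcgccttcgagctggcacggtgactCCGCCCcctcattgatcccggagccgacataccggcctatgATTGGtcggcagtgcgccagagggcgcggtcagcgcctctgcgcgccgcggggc
Slc25a38, chr9:120110132-120110376, plus strand: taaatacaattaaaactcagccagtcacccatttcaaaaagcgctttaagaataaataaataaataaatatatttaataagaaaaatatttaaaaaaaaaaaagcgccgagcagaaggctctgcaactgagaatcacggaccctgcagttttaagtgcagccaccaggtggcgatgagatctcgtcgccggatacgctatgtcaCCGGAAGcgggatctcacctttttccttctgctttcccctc
Slc25a45, chr19:5877572-5877800, plus strand: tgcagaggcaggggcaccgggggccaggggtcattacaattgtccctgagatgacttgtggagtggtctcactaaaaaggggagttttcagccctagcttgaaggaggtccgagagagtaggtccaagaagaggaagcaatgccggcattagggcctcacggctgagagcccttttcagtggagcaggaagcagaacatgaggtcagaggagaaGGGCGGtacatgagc
The GC box was in 20 of the 31 windows (64.5%), where 32.7% of all 32851 windows of this length held it. The CCAAT box was in 14 (45.2%, against 33.8%) and the ETS core in 4 (12.9%, against 6.91%). The palindromic NRF1 site and the estrogen-related receptor half-site (TCAAGGTCA) were in none of the 31, where 0.782% and 0.387% of all windows held them. The windows of the carriers had a median GC content of 58.4%, against 52.4% over all windows. In the stretches shown, Slc25a23, Slc25a25 and Slc25a45 each held 1 GC box, and the part of any motif in the carrier values was not tested.

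A second single-gene probe was present for 9 of the carriers, and in 4 of them the probes had opposite signs. The plainest case was Slc25a12, which brings glutamate into the matrix in exchange for aspartate. Its probes were equally bright (mean log2 intensity 0.66 and 0.65), so the choice of the brighter one rested on a small margin. The chosen probe had a log2 fold change of 0.08 ± 0.27. The other had 2.70, 2.26, 1.51, 2.30 and 2.25 in saline mice and 1.35, 0.827, 0.730, 1.31 and 1.81 in ASO mice, a log2 fold change of -0.93 ± 0.26 (limma unadjusted p = 0.00459, adjusted p = 0.250). Only ASO replicate 5 lay above the lowest saline mouse at this probe. The probes of Slc25a33 gave -0.18 ± 0.26 and 0.23 ± 0.23, those of Slc25a51 0.17 ± 0.21 and -0.58 ± 0.32, and those of Slc25a53 0.40 ± 0.35 and -0.14 ± 0.20. In Slc25a23 both probes were lower (-0.61 ± 0.18 and -0.86 ± 0.38). The difference between the probes of a gene was tested by exact two-sided permutation of the mice, a test chosen after the values were seen. None of the 9 genes passed it: the smallest p was 0.0794, for Slc25a38, and the adjusted p was 0.262 for Slc25a12, Slc25a38 and Slc25a51.

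**Figure D4:**
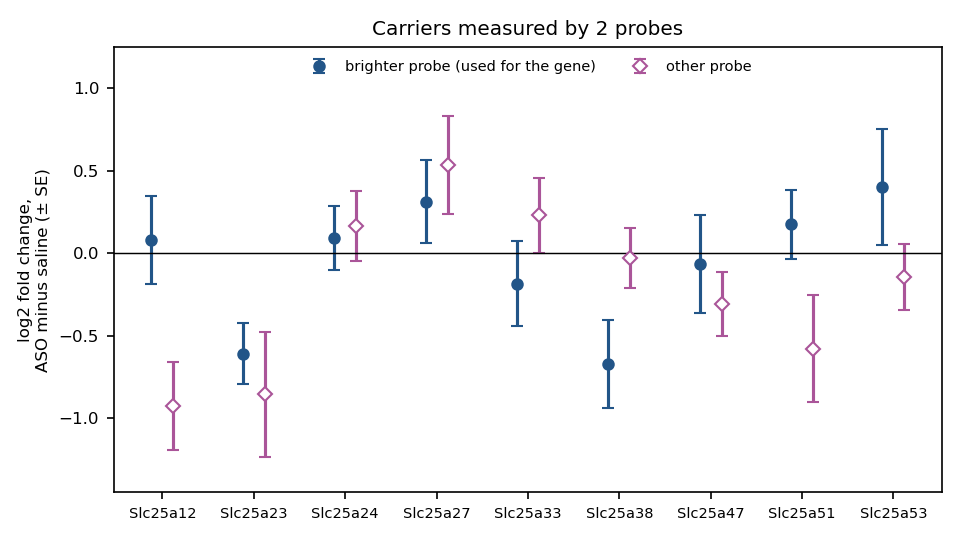
Log2 fold change (y axis, ASO minus saline, bars are ± SE of the limma fit) of the 9 carriers measured by 2 probes. Filled circles are the brighter probe, which stands for the gene elsewhere, and open diamonds the other; they lie on opposite sides of 0 for Slc25a12, Slc25a33, Slc25a51 and Slc25a53.

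Related carriers were compared in pairs, as the difference in log2 intensity between the 2 genes on each array, which shows unequal change and not which gene is more abundant. Of 11 pairs 10 could be measured, and none passed after adjustment over the 10 (exact two-sided permutation test, smallest possible p = 0.00794). The ATP-magnesium carriers Slc25a23 and Slc25a24 had the smallest p. Their difference was 3.58 ± 0.34 in saline mice and 2.88 ± 0.46 in ASO mice (SD over 5 mice each), a shift of -0.70 with a 95% interval of -1.29 to -0.11 (exact permutation p = 0.0238, adjusted p = 0.159). The difference between Slc25a34 and Slc25a35 shifted by 0.90, with an interval of 0.12 to 1.67 (exact permutation p = 0.0317, adjusted p = 0.159). That between Slc25a45 and Slc25a47 shifted by 0.76, with an interval of -0.18 to 1.70 (exact permutation p = 0.0873, adjusted p = 0.291). The difference between Slc25a39 and Slc25a40, both linked to glutathione, shifted by -0.59, with an interval of -1.82 to 0.64 (exact permutation p = 0.278, adjusted p = 0.694). The ADP/ATP carriers Slc25a4 and Slc25a5 (-0.13, interval -1.15 to 0.88), the aspartate-glutamate carriers Slc25a12 and Slc25a13 (0.15, interval -0.99 to 1.29) and the mitoferrins Slc25a28 and Slc25a37 (0.04, interval -1.06 to 1.14) had intervals on both sides of 0. So did Slc25a14 and Slc25a30 (-0.36, interval -1.34 to 0.61), Slc25a10 and Slc25a11 (0.23, interval -0.37 to 0.82), and Slc25a22 and Slc25a18 (-0.04, interval -0.70 to 0.61).

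The carriers did not sit at the same level on every array of a group. The median deviation of the 31 brighter carriers from their own means over the 10 arrays was 0.33, 0.25, 0.12, -0.0050 and -0.00066 (log2) in saline replicates 1 to 5. In ASO replicates 1 to 5 it was -0.05, -0.17, -0.15, 0.05 and 0.03. Saline replicates 1 and 2 stood highest, and ASO replicates 4 and 5 lay above saline replicates 4 and 5. All probes above the median level moved in the same order in the first saline arrays, with 0.17, 0.09 and 0.04 in saline replicates 1 to 3, so saline replicates 1 and 2 were also the highest arrays for bright probes in general. Within groups, the SD of a carrier above the median level was 0.25 to 0.78 with a median of 0.43, and the median over all probes above that level was 0.39.

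**Figure D5:**
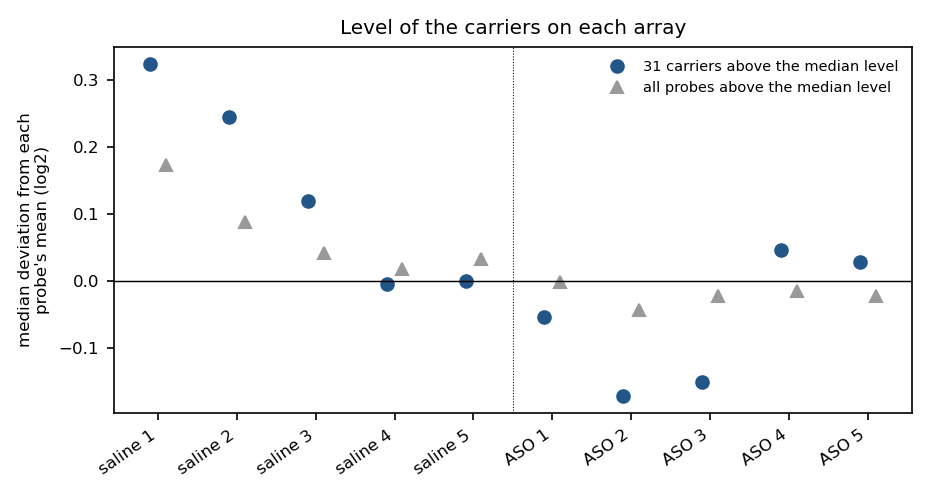
Median deviation (y axis, log2) of the 31 carriers above the median level from each carrier's mean over the 10 arrays, for each array (x axis), as circles, with the same for all 18044 probes above the median level as triangles. Saline replicates 1 and 2 stand highest for both, and the ASO arrays lie between -0.17 and 0.05 for the carriers.

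Some genes around the family had larger differences than any of the 40. Of the carriers left out of the family by the selection, Slc25a1, which exports citrate for lipid synthesis, had a mean log2 level of 4.29 ± 0.64 in saline mice and 2.87 ± 0.82 in ASO mice (SD over 5 mice each), a difference of -1.42. Slc25a20, the carnitine carrier of fatty acid oxidation, had 2.96 ± 0.57 and 1.50 ± 0.52 (-1.46), and Slc25a15, the ornithine carrier of the urea cycle, 4.10 ± 0.22 and 4.08 ± 0.32. The relatives with other symbols were Mtch1 (-0.43), Mtch2 (-0.21), Ucp1 (0.19) and Ucp3 (0.16). These 7 genes (2 higher and 5 lower, median -0.21, 3 of the lower ones at an unadjusted limma p under 0.05) also did not reach an adjusted p under 0.05, as was so for the 3 lists that follow. Of the 7 genes 5 lay above the median level, where 59.9% of all probes were lower and 10.4% were lower at that unadjusted p. Over all tested probes these shares were 50.3% and 6.66%.

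The machinery that inserts carriers into the membrane had 10 measured genes (2 higher and 8 lower, median -0.30), 3 of them lower and 0 higher at an unadjusted limma p under 0.05. All 10 lay above the median level of all probes, where 59.9% of probes were lower and 10.4% were lower at that p. Tomm22, a receptor of the outer membrane import pore, had mean log2 levels of 4.76 ± 0.51 in saline mice and 3.65 ± 0.75 in ASO mice (SD over 5 mice each), a difference of -1.11. Tomm40, the pore itself, had -0.68 and Timm9, a chaperone that escorts carriers between the membranes, -0.37. The enzymes of the malate-aspartate shuttle, which works with Slc25a11, Slc25a12 and Slc25a13, and of the glycerol phosphate shuttle, which needs no carrier, together had 5 measured genes and all 5 were lower (median -0.51), 2 of them at an unadjusted p under 0.05, and these 5 too lay above the median level, with the same background. Got1, the cytosolic aspartate aminotransferase, had 3.94 ± 0.55 in saline mice and 2.35 ± 0.75 in ASO mice, a difference of -1.59 without overlap between the groups (1.43% of all probes were lower without overlap), and its mitochondrial counterpart Got2 had -0.51. Mdh1, the cytosolic malate dehydrogenase, had -0.54. Of 14 other mitochondrial channels and carriers (5 higher and 9 lower, median -0.15) 2 were lower at an unadjusted p under 0.05, Tspo (-0.65) and Abcb8 (-0.53), and 0 were higher, and Sfxn1 had -0.49.

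Summed markers of other cells overlapped between the groups. Kupffer cell and macrophage markers (6 of 8 measured) summed to 90.8 to 223 in saline mice and 37.5 to 204 in ASO mice, endothelial markers (6 of 6) to 61.1 to 117 and 44.1 to 154, and stellate cell markers (6 of 6) to 86.6 to 106 and 69.8 to 97.7. Bile duct markers (4 of 5) summed to 6.05 to 7.65 and 5.31 to 7.25, acinar pancreas markers (4 of 5) to 2.43 to 3.15 and 1.68 to 3.003, and brown fat markers (2 of 2) to 0.423 to 0.745 and 0.593 to 1.04. Hepatocyte markers (7 of 10) summed to 2061 to 4473 and 4029 to 5415. Of these 7 markers 4 were higher in ASO mice and 3 lower (Apob -0.25, Hnf4a -0.13 and F2 -0.28, log2 fold change). The brightest value of saline replicate 1 was 542, where the other arrays reached 1198 to 2333, and its part in the hepatocyte sum was not tested. No measured marker lay at the floor on all 10 arrays, and the part of any of these cells in the carrier values was not tested.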

How the data were processed

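Array intensities of 10 mouse livers were deposited by the authors on a linear scale; no source used here gives the software, background subtraction or scaling. Per the labels' protocols, biotin-labelled RNA was hybridised with the CodeLink assay. Array medians were 1.03 to 1.05, so the values had been scaled; the centring and its method stay unknown, and each array held 74 to 377 values of 0 or less. Depth has no meaning here: the number of arrays limits the precision.

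Of 36227 probes, 139 with fewer than 3 values in a group were left out. Values below the 10th percentile of positive values (0.192) were raised to that floor before the log2 transform (-2.38), which understates differences of dim probes. Differences are ASO minus saline, fitted over all 36088 probes with limma 3.58.1 (R 4.3.3, eBayes, no covariates, Benjamini-Hochberg adjustment, two-sided). Gene names came from the platform annotation: 21615 probes with 1 symbol, 681 with several (2 with an SLC25 gene, not used here) and 13931 with none. All 49 carrier probes matched a gene table of GRCm38.p6 by Entrez ID, with 0 symbols changed.

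The carriers, pairs and lists were chosen with earlier results of these data known. Values per array are given for the 10 carriers with the smallest unadjusted p and the 8 brightest, and of other lists up to 3 genes with the smallest p are named, and any other name was chosen after their values were seen. Alternatives were quantile and cyclic loess normalization, no floor, a pseudocount of 0.5, a filter on the median level, array weights, eBayes with its trend and robust options, the mean of a gene's probes, and leaving out each array. On data simulated for this comparison over 36088 probes, limma recovered 1 of 67 probes at a 1.5-fold change, 21 of 67 at 2-fold and 50 of 66 at 4-fold. The changed probes were all drawn from those above the median level, with independent normal noise, so these rates do not cover dimmer probes.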

Additional observations from a re-analysis of the deposited data

Results flagged for a closer look

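In 5 of 80 groups of 5 mice (each carrier in each treatment) 1 mouse stood far from the others by Dixon's test at the 95% level, which chance does in about 1 in 20 groups. Slc25a44, the branched-chain amino acid carrier, was at 3.17 (log2 intensity) in ASO replicate 3, and the other ASO mice at 4.85 to 4.99. Slc25a11, the oxoglutarate carrier, was at 0.95 in ASO replicate 1, and the others at 2.35 to 2.72. Slc25a34 was at -2.28 in saline replicate 5, and the others at -0.79 to -0.38. Slc25a26, the S-adenosylmethionine carrier, was at 0.85 in saline replicate 4, and the others at 0.24 to 0.41. Slc25a30 was at -0.76 in ASO replicate 3, with the other 4 ASO mice at the floor of -2.38, where any value above the floor would stand apart, so this one has no bearing on the chance rate.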

How the results depend on the processing

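In 18 alternatives, 10 of them leaving out 1 array, 0 carriers passed, and 25 of 40 carriers kept their direction in every one run for them (the 9 carriers at or below the median level were not in the filter on that level, so 17 for these). Pairs were run in 14 of the alternatives, and 0 of 10 passed. Leaving out 1 array moved the value of 32 carriers by over 1.5 times or turned it. The number of probes called over the array was 23, and 39 under cyclic loess, 7 with no floor, 43 with a pseudocount, 73 with only probes above the median level, 42 with trend and robust, and 0 to 16 with 1 array left out. The carriers lower at an unadjusted p under 0.05 were 2 under quantile normalization, 3 under cyclic loess or with no floor, and 5 with a pseudocount. With 1 array left out 2 to 4 were lower and 1 to 2 higher. The median log2 fold change of the 40 carriers was 0.0069 under quantile normalization and -0.20 to -0.01 with 1 array left out. For these counts and this median the cause was not tested.

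Some directions turned, and the cause was not tested. Under quantile normalization Slc25a13 was 0.087, Slc25a33 0.0023, Slc25a46 0.028 and Slc25a47 0.012, and the pair Slc25a22 and Slc25a18 0.18. Under cyclic loess Slc25a2 was -0.0032, Slc25a13 0.032, Slc25a18 -0.018, Slc25a46 0.0031 and Slc25a47 0.022, and the pair Slc25a22 and Slc25a18 0.14. With no floor Slc25a30 was -0.97 (0.13 with the floor) and its pair with Slc25a14 0.73 (-0.36 with the floor), so these were not small. With a pseudocount Slc25a2 was -0.070 and Slc25a30 -0.091. With array weights Slc25a12 was -0.016, Slc25a18 -0.023 and Slc25a22 -0.0073. With the mean of all probes Slc25a12 was -0.42, Slc25a33 0.023 and Slc25a51 -0.20, and the probes of each of these genes had opposite signs.

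With 1 array left out the ranges that cross 0 were -0.15 to 0.20 for Slc25a2, -0.085 to 0.27 for Slc25a12, -0.33 to 0.10 for Slc25a13, -0.086 to 0.20 for Slc25a18, -0.36 to 0.11 for Slc25a21, -0.11 to 0.11 for Slc25a22, -0.034 to 0.21 for Slc25a26, -0.34 to 0.14 for Slc25a28, -0.20 to 0.25 for Slc25a30, -0.059 to 0.43 for Slc25a34, -0.44 to 0.016 for Slc25a37 and -0.24 to 0.17 for Slc25a47. For pairs they were -0.33 to 0.24 for Slc25a4 and Slc25a5, -0.19 to 0.39 for Slc25a12 and Slc25a13, -0.17 to 0.18 for Slc25a22 and Slc25a18, and -0.17 to 0.40 for Slc25a28 and Slc25a37. No paired analysis was possible because the 2 groups hold different mice and the labels give no pairing between them. The labels give no replicate numbers either, so those used here follow the order of the sample titles.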
